A study of Mus musculus with 6 samples.

Results

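Kidney macrophages were followed here through 10 genes: the receptors Csf1r, Cx3cr1 and Adgre1, the cytoplasmic protein gene Aif1, the lysosomal genes Ctss, Cd68 and Lyz2, and the complement genes C1qa, C1qb and C1qc. The genes are widely used macrophage markers, and they were chosen with earlier results of these arrays known, so their WT and Selenbp1-KO values are a description, and no p is given for them. They were taken by gene name from the array annotation, with Adgre1 also under its older name Emr1. All 10 were on the array, of 37325 genes in all, and 17 probes read them.

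The study compared kidneys of wild-type (WT) C57BL/6J mice with kidneys of Selenbp1-KO mice labeled as the same strain, which lack selenium-binding protein 1 in the whole animal. All mice were males of 8 weeks, fasted for 20 h, and the left kidney of each was placed in RNAlater. RNA was labeled with 1 dye and hybridized to 6 arrays, 1 mouse per array, with 3 arrays per genotype. The WT mice are labeled replicates 2, 3 and 4, and the Selenbp1-KO mice replicates 1, 2 and 3.

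Macrophages live in the kidney interstitium between the tubules, where they are kept alive by signals through the receptor encoded by Csf1r. They engulf dying cells and debris, digest them in lysosomes, and are the main source of C1q, which starts the classical complement pathway. Csf1r, Cx3cr1, Lyz2 and Ctss are also read in monocytes or dendritic cells, and Lyz2 in neutrophils, so not every one of the 10 marks macrophages alone. In RNA of a whole kidney, fewer cells of a type and less RNA per cell cannot be told apart.

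Selenbp1, the targeted gene, read 7.02 to 7.07 on the WT arrays and 3.98 to 4.13 on the Selenbp1-KO arrays, so each label carried the genotype its signal showed. These and all later signals are log2 values relative to the array's 75th percentile, so a signal below 0 lies under that percentile and a signal difference of 1 is a 2-fold difference. The 75th percentile was an intensity of 477 to 751, 51.8% to 55.5% of spots were well above background, and no spot was saturated. All arrays lay on 1 slide. WT replicates 2 and 3 lay on slide side 1, and WT replicate 4 lay on slide side 2 with all 3 Selenbp1-KO arrays, so the sides hold the genotypes unequally. Signals were read for each gene from its brightest probe. For all 10 genes this probe was well above background on all 6 arrays, with intensities from 156 to 7169.

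The mean signal was higher in Selenbp1-KO than in WT kidneys for each of the 10 genes. The median difference, KO minus WT, was 0.43, or 1.35-fold, and the genes ranged from 0.17 for Csf1r to 0.74 for Lyz2. Across all 37028 genes tested the median difference was 0.13, and it was 0.02 across the 19265 genes whose signal cleared the background on all arrays of either genotype. For Lyz2, Ctss, Cd68, C1qa, C1qb and C1qc, 6 of the 10, every Selenbp1-KO array lay above every WT array. This was so for 10.2% of all genes, and 3.87% lay wholly below. Since the genes were chosen on this contrast, nothing is read from their count against these shares.

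**Figure D1:**
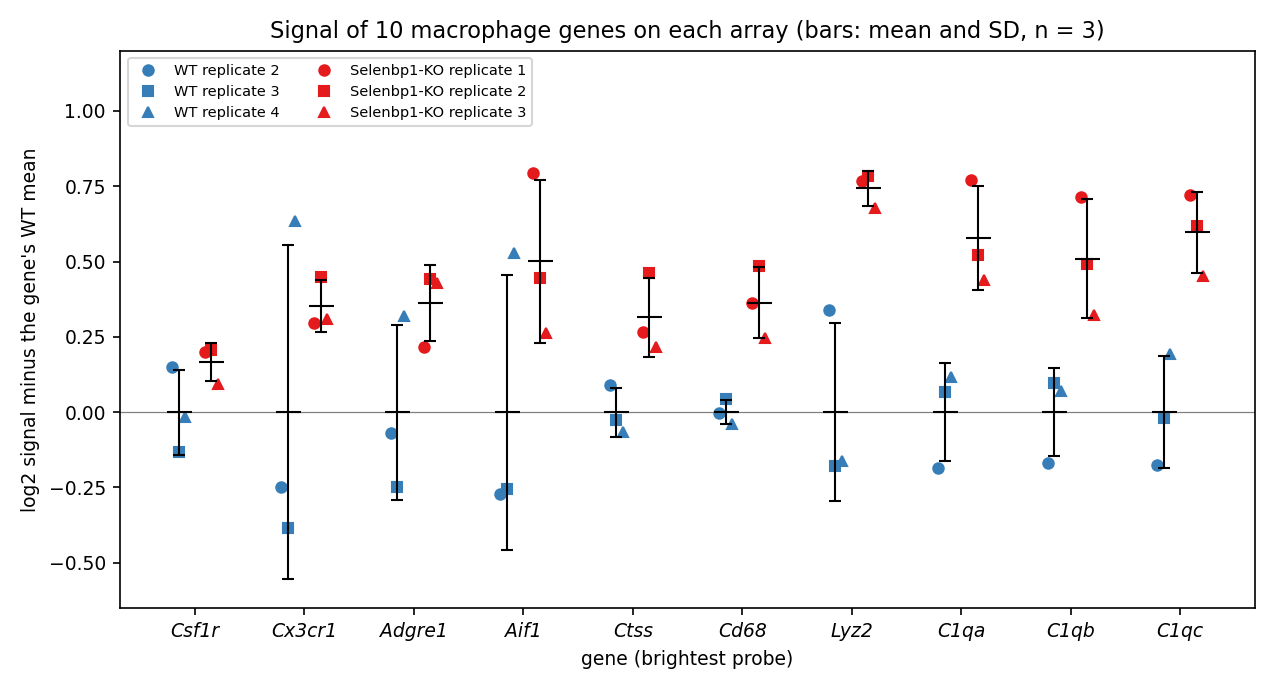
Log2 signal of each gene's brightest probe on each array, minus the gene's WT mean, with horizontal and vertical bars for the mean and SD of the 3 arrays of a genotype. In Lyz2, Ctss, Cd68 and the 3 C1q genes all Selenbp1-KO points lie above all WT points, and in Cx3cr1, Adgre1 and Aif1 WT replicate 4 lies among or above the Selenbp1-KO points.

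Of the receptors, Csf1r encodes the receptor for the growth factors Csf1 and Il34, on which macrophages depend. It read 3.33, 3.05 and 3.17 in the WT replicates and 3.38, 3.39 and 3.28 in the Selenbp1-KO replicates. The lowest Selenbp1-KO array lay below the highest WT array, so the genotypes overlapped. The difference was 0.17 (standard error 0.12, n = 3 per genotype), which was exceeded by 45.5% of all genes tested. A further Csf1r probe, which reads the same transcript, also differed by 0.17 and also overlapped.

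Cx3cr1 encodes the receptor for the chemokine Cx3cl1, which can stay tethered to the surface of the cell that makes it. Its signals were -2.13, -2.27 and -1.25 in WT and -1.59, -1.43 and -1.57 in Selenbp1-KO kidneys. WT replicate 4 was the highest of all 6 arrays, and the other WT arrays were the lowest. The difference of 0.35 (standard error 0.28) was therefore small beside the WT spread, and it was -0.28 against WT replicate 4 alone. Its dimmer probe cleared the background on 2 WT arrays and on 1 Selenbp1-KO array, and it differed by 0.19 (standard error 0.43).

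Adgre1 encodes F4/80, the surface protein by which mouse macrophages are usually recognized. It read -2.03, -2.21 and -1.64 in WT and -1.75, -1.52 and -1.53 in Selenbp1-KO kidneys. WT replicate 4 lay above Selenbp1-KO replicate 1, so the genotypes overlapped, with a difference of 0.36 (standard error 0.17). Against WT replicate 4 alone it was 0.04. The other Adgre1 probe was not well above background on any array.

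Aif1, which encodes the actin-binding protein Iba1, showed the same outlying WT array. Signals were -2.18, -2.17 and -1.38 in WT and -1.12, -1.47 and -1.65 in Selenbp1-KO kidneys. WT replicate 4 stood second among the 6 arrays, between Selenbp1-KO replicates 1 and 2. The difference was 0.50 (standard error 0.26) with all WT arrays and -0.027 against WT replicate 4 alone.

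The lysosomal genes separated the genotypes without overlap. Larger differences than those of Ctss and Cd68 were found in 34.1% and 29.8% of all genes tested. For Cx3cr1 and Adgre1, which overlapped, these shares were 32.1% and 30.3%. Ctss encodes cathepsin S, a protease that trims the invariant chain during antigen presentation. It read 1.09, 0.98 and 0.94 in WT and 1.27, 1.47 and 1.22 in Selenbp1-KO kidneys, without overlap, and differed by 0.31 (standard error 0.12, 1.24-fold). It was 0.24 without Selenbp1-KO replicate 2, the lowest difference when any array was left out. Ctss lies on chromosome 3 with the targeted gene, and its probe starts 0.611 Mb from the Selenbp1 probe, so an effect of the altered locus on a neighbor cannot be told apart from other effects of the genotype.

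Cd68, a heavily glycosylated protein of the lysosome membrane, read -1.62, -1.57 and -1.65 in WT and -1.25, -1.13 and -1.37 in Selenbp1-KO kidneys. The WT arrays lay close together, and all Selenbp1-KO arrays lay above them. The difference was 0.36 (standard error 0.11, 1.29-fold). A dimmer probe of the same transcript gave 0.44 (standard error 0.13), again with no overlap, and a further probe was not well above background on any array.

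Lyz2 encodes lysozyme M, which cuts bacterial cell walls. It had the widest difference of the 10 genes: signals were 2.74, 2.22 and 2.24 in WT and 3.17, 3.18 and 3.08 in Selenbp1-KO kidneys. The means differed by 0.74 (standard error 0.17, 1.67-fold), and 3.43% of all genes tested had a larger one. The dimmer Lyz2 probe read -2.77, -2.93 and -3.16 in WT and -1.88, -1.98 and -2.41 in Selenbp1-KO kidneys, and the genotypes differed by 0.87 (standard error 0.18). Neither probe overlapped between the genotypes. The dimmer probe is shown because it gives a second reading of the widest difference from another position. It lies at chr10:116719175-116719234 of mm9, minus strand, in the transcript NM_017372, and no letters are capitalized because no part of it was singled out:
Lyz2: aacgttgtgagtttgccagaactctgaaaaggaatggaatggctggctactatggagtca
Its neighbor Lyz1, a close paralog that encodes the lysozyme of the gut, read -0.11, -0.44 and -0.57 in WT and 0.42, 0.55 and 0.36 in Selenbp1-KO kidneys. Lyz1 thus differed by 0.82 (standard error 0.15) without overlap, with an adjusted p of 0.279 from limma. Whether the Lyz1 and Lyz2 probes also read each other's transcripts is not known.

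The 3 C1q genes encode the A, B and C chains that assemble into the C1q molecule. C1qa read -1.14, -0.89 and -0.84 in WT and -0.19, -0.44 and -0.52 in Selenbp1-KO kidneys. For C1qb the signals were -1.40, -1.13 and -1.15 in WT and -0.51, -0.73 and -0.90 in Selenbp1-KO kidneys. For C1qc they were -0.38, -0.23 and -0.01 in WT and 0.51, 0.41 and 0.25 in Selenbp1-KO kidneys. In all 3 genes the Selenbp1-KO arrays stood above the WT arrays, with replicate 1 the highest and replicate 3 the lowest of them, and WT replicate 2 was the lowest array of all. The differences were 0.58 for C1qa (standard error 0.14, 1.49-fold), 0.51 for C1qb (standard error 0.15, 1.42-fold) and 0.60 for C1qc (standard error 0.14, 1.51-fold). A further C1qc probe was not well above background on any array.

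The C1q genes also share their place in the genome: their probes lie within 15.9 kb of each other on the minus strand of chromosome 4. The C1qa and C1qb probes are shown because their sequences carried these readings. The C1qa probe lies at chr4:136452409-136452468 and the C1qb probe at chr4:136436578-136436637, both on mm9, in the transcripts NM_007572 and NM_009777, with no letters capitalized:
C1qa: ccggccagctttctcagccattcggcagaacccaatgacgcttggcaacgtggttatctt
C1qb: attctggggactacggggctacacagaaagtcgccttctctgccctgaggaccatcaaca
Both hold 55% G and C, the highest share among the 17 probes, which were all 60 bases long and ranged from 35% with a median of 45%.

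The promoters were searched for the letters GAGGAAGT and GAGGAA on both strands, the longer and the shorter form of a site for PU.1, the macrophage transcription factor encoded by Spi1, and for TGACTCA, the site of AP-1. The longer form contains the shorter. RefSeq promoter sequences of GRCm38.p6, from 250 bases before to 50 after each gene's start, were used for 7 of the 10 genes: Cx3cr1, Aif1, Ctss, Cd68, Lyz2, C1qb and C1qc. GAGGAAGT was found in 2 of the 7, Ctss and C1qc, and in 3.2% of all 32851 promoters. GAGGAA was found in 5 of the 7, Aif1, Ctss, Cd68, C1qb and C1qc, and in 28.3% of all promoters. TGACTCA was found in Cd68 alone of the 7, and in 5.2% of all promoters. These letters are a description of the sequence and not of binding. The C1qc promoter is shown for its match, which begins 195 bases before the start and is in capitals, read on the opposite strand as ACTTCCTC. The 250 bases before the start are at chr4:136892915-136893164 of GRCm38.p6, minus strand:
C1qc: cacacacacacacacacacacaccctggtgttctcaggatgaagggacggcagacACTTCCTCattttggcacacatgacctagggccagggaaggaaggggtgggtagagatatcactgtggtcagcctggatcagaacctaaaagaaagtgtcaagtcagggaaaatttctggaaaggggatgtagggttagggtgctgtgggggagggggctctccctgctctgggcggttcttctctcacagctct

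**Figure D2:**
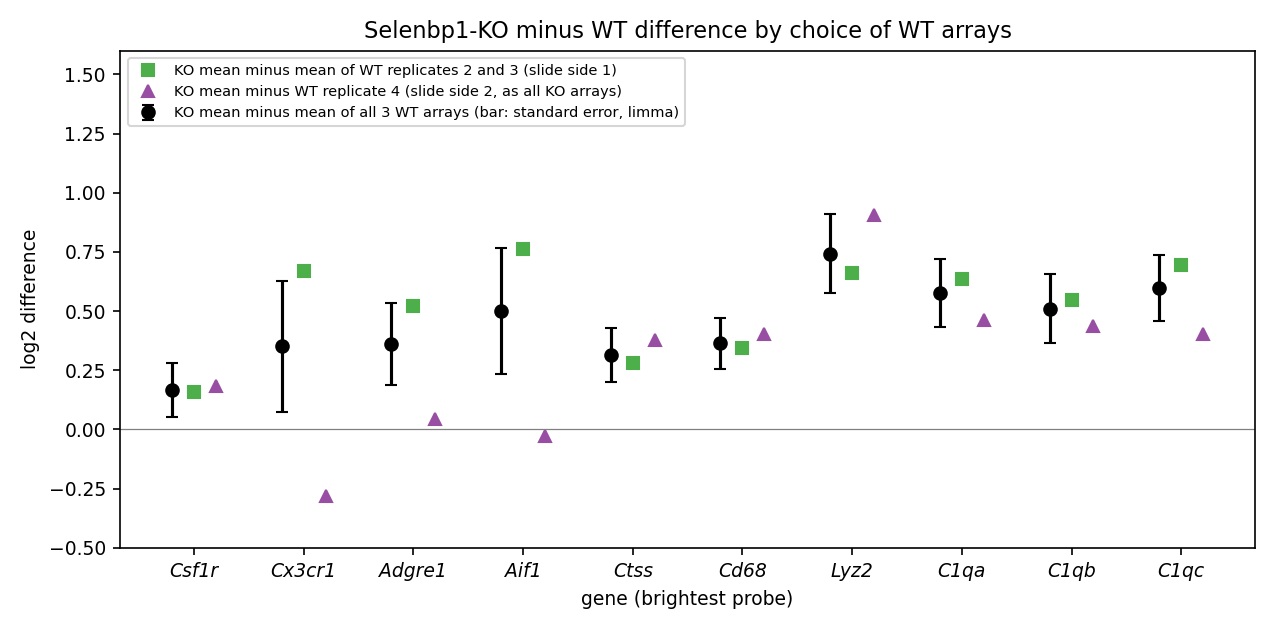
Log2 difference, KO minus WT, of each gene against all 3 WT arrays (circle, with the limma standard error), against WT replicates 2 and 3 (square) and against WT replicate 4 (triangle). The triangles of Cx3cr1, Aif1 and Adgre1 lie at or below 0.04, while those of the other 7 genes lie between 0.18 and 0.91.

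The choice of WT arrays divided the genes into those that moved little and those that moved far. Against WT replicate 4, which shares slide side 2 with the Selenbp1-KO arrays, the median difference of the 10 genes was 0.39, with 8 genes above 0. Against WT replicates 2 and 3, on side 1, it was 0.59, with all 10 genes above 0. WT replicate 4 itself lay above the mean of the other WT arrays for 6 genes. The difference was 0.95 for Cx3cr1, 0.79 for Aif1, 0.48 for Adgre1 and 0.29 or less for the C1q genes. For the others WT replicate 4 lay below: the difference was -0.24 for Lyz2, -0.098 for Ctss, -0.058 for Cd68 and -0.025 for Csf1r. Over the whole array, 4479 probes had an unadjusted p under the methods' threshold of 0.05 from limma, 81.1% of them higher in Selenbp1-KO kidneys. Without WT replicate 4 there were 17585, of which 94.4% were higher, and with slide side as a block there were 3651, of which 37.3% were higher. Genotype and slide side are compared within side 2 against 1 WT array only.

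Averaged over the 10 genes, the WT arrays read -0.37 (replicate 2), -0.42 (replicate 3) and -0.16 (replicate 4), and the Selenbp1-KO arrays read 0.19 (replicate 1), 0.17 (replicate 2) and 0.03 (replicate 3). The 6 arrays therefore stood apart by genotype in the mean, with WT replicate 4 and Selenbp1-KO replicate 3 nearest to each other. Selenbp1-KO replicate 2 was the highest array for 5 genes and replicate 1 for 4 genes, and a WT array was the lowest for all 10. The median SD of a gene within a genotype was 0.17 in WT and 0.13 in Selenbp1-KO kidneys.

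Between the genes, Pearson correlations across the 6 arrays were above 0 for all 45 pairs, with a median of 0.70 and a range from 0.31 to 0.99. These values contain the genotype difference for which the genes were chosen, and the 6 points share 1 slide and 1 scaling. After the genotype mean was taken from each array, the median fell to 0.11, with a range from -0.58 to 0.97. The highest of these was that of C1qa with C1qb, followed by Adgre1 with Cx3cr1 (0.93), Aif1 with C1qc (0.92), Csf1r with Lyz2 (0.91), C1qa with C1qc (0.89), C1qb with C1qc (0.83) and Aif1 with Cx3cr1 (0.82). With 6 arrays, 1 outlying array can largely set such a value. WT replicate 4 was the highest WT array for Cx3cr1, Adgre1, Aif1, C1qa and C1qc. WT replicate 2 was so for Csf1r, Lyz2 and Ctss, and WT replicate 3 for Cd68 and C1qb.

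**Figure D3:**
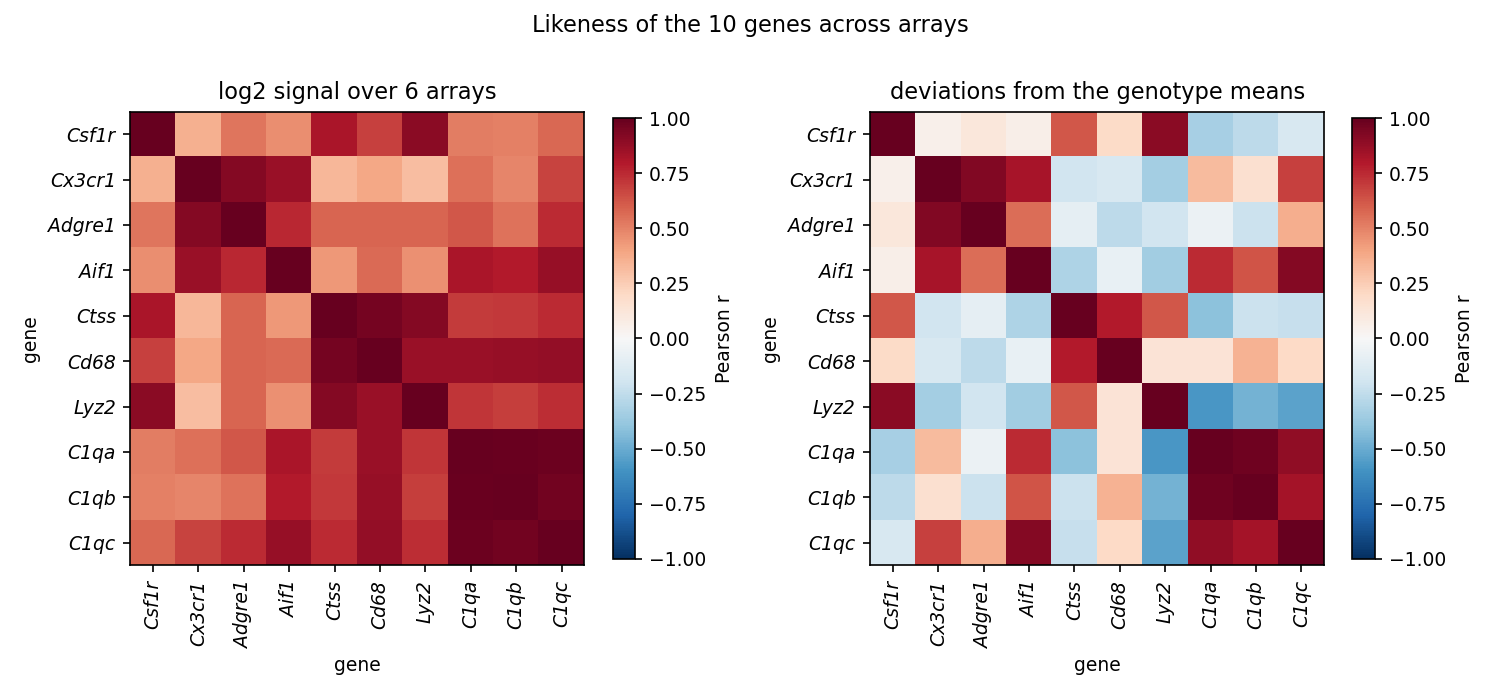
Pearson correlation of each pair of the 10 genes over 6 arrays (left) and after the genotype mean was taken from each array (right), on a scale from -1 to 1. In the right panel the C1q pairs stay between 0.83 and 0.97, as do Adgre1 with Cx3cr1, Aif1 with C1qc and Csf1r with Lyz2, while the median of all pairs is 0.11.

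The genes most like the mean profile of the 10 were sought among 4644 other genes well above background on all arrays with an SD of at least 0.2. The 10 highest correlations over the 6 arrays were those of Ramp3 (0.998), Tulp1 (0.994), C5ar2 (0.990), C1qtnf2 (0.990), Gpx4 (0.990), Rpph1 (0.988), BC128469 (0.987), Rgs10 (0.987), Gm20878 (0.985) and Marcksl1 (0.985). None of these is in the lists of macrophage or other cell type genes used below. A correlation above 0.9 was found for 277 genes, 9 of them list genes: Fcer1g, Tyrobp and Fcgr3 of the myeloid receptors, Cd3e of T cells, and the red blood cell genes Hbb-b1, Hbb-b2, Hbb-bt, Hba-a1 and Hba-a2. With 6 arrays in 2 genotypes, many genes resemble any profile that differs between them.

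Other genes of the macrophage pathway moved unevenly. In the lists that follow, a gene is said to have risen where its unadjusted p from limma was under 0.05, the methods' criterion. Of all genes tested, 6.87% met it with a higher and 1.13% with a lower Selenbp1-KO signal, and no gene in any of these lists had an adjusted p under 0.279. When 1 array was left out, the share with a higher signal was 30.4% without WT replicate 4 and 2.45% to 5.68% without any other. Of the 3 ligands of the receptors, Csf1, Il34 and Cx3cl1, none met the criterion, and the median difference was 0.15. Cx3cl1, the brightest, differed by -0.01 (standard error 0.11). None of 6 macrophage transcription factors met it either, with a median of -0.01, and the brightest, Maf, differed by -0.14 (standard error 0.13). Spi1 was not well above background on any array.

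C1q acts through the proteases C1r and C1s, which cleave C4 and C2 and thereby lead to C3. Of 6 genes of this pathway, 4 rose, none fell, and the median was 0.41. Only 1 met the criterion without WT replicate 2 or without Selenbp1-KO replicate 2, and 3 or 4 did when any of the other arrays was left out. C1ra rose by 0.30, C1s1 by 0.42, the inhibitor gene Serping1 by 0.47 and C3 by 0.56, each without overlap between genotypes, with standard errors from 0.11 to 0.19. C4b differed by 0.41 with a standard error of 0.25 and did not meet the criterion, and neither did C2, at -0.08 (standard error 0.11).

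Lysosomal genes other than the chosen 3, most of which tubule cells also express, gave a median of 0.07. Ctsk, a cathepsin best known from bone, rose by 0.35 (standard error 0.10), and it was the only one of 12 to meet the criterion. None did without Selenbp1-KO replicate 3 or with slide side as a block. With quantile normalization the list's median was -0.03, so its sign depends on the scaling.

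Among 23 myeloid receptor and signaling genes, 19 had a higher mean in Selenbp1-KO kidneys, 6 met the criterion with a higher signal, and none with a lower one, with a median of 0.28. Tyrobp, the signaling adaptor DAP12, read -0.39, -0.49 and -0.45 in WT and 0.30, 0.33 and 0.11 in Selenbp1-KO kidneys, a rise of 0.69 (standard error 0.11). Fcer1g, the Fc receptor gamma chain, rose by 0.40 (standard error 0.14), Fcgr3 by 0.69 (standard error 0.14), Fcgr4 by 0.48 (standard error 0.13) and Cd86, a costimulatory ligand of T cells, by 0.55 (standard error 0.13). Cd53 met the criterion but was not well above background on any array, so no fold is given. Ptprc, the pan-leukocyte gene that encodes CD45, did not meet it, at -0.16 (standard error 0.13).

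All 9 genes of the perivascular macrophage list had a higher mean in Selenbp1-KO kidneys, with a median of 0.70, and 4 rose. Mrc1, the mannose receptor, rose by 0.70 (standard error 0.17), and Pf4, a chemokine also abundant in platelets, by 1.06 (standard error 0.28). Cd163, the receptor for hemoglobin bound to haptoglobin, rose by 1.01 (standard error 0.33) and F13a1, the coagulation factor XIII A chain, by 1.77 (standard error 0.43). The probes of Cd163 and F13a1 cleared the background on all Selenbp1-KO arrays but on only 2 of the 3 from WT. Those of Lyve1 and Timd4 did so on none. The 3 brightest genes of the list, Cbr2, Folr2 and Stab1, overlapped between the genotypes, and none of them met the criterion. They differed by 0.27 (standard error 0.28), 0.07 (standard error 0.10) and 0.13 (standard error 0.12). The linear signals of the list summed to 5.92 to 6.37 in WT and 6.02 to 9.43 in Selenbp1-KO kidneys, so the sums overlapped as well.

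**Figure D4:**
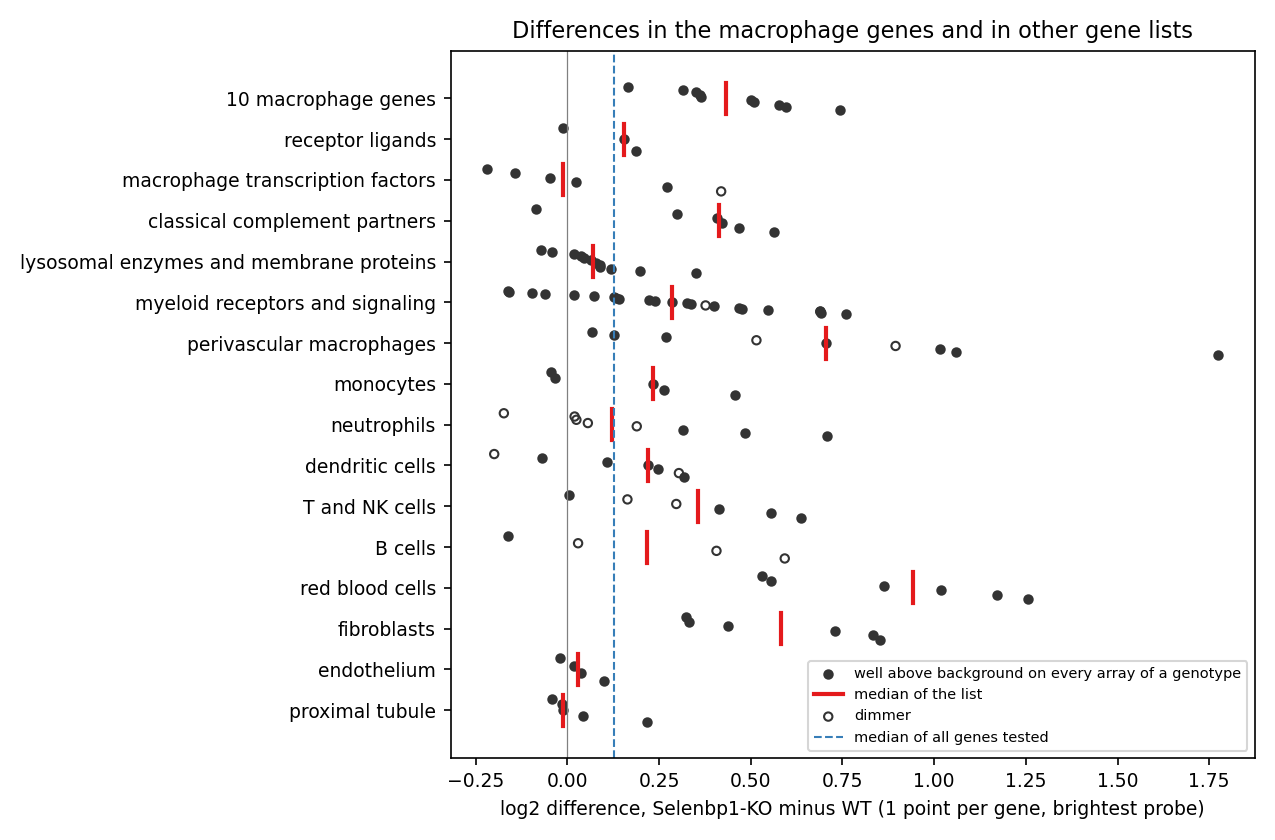
Log2 difference, KO minus WT, of each gene in the 10 macrophage genes and 15 other lists, 1 point per gene (open where the probe cleared the background on all arrays of neither genotype), with the list median as a red bar and the median of all genes tested, 0.13, as a dashed line. With all arrays and the scaling used here, red blood cell, perivascular macrophage and fibroblast genes have medians above that of the 10 macrophage genes. The median of the perivascular list is below it with normexp background correction. Medians of proximal tubule and endothelial genes lie near 0.

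Markers of other cells were examined on the same arrays, beginning with those whose lists moved with the 10 genes. For comparison, the linear signals of the 10 macrophage genes, relative to the 75th percentile, summed to 17.8 to 21.5 in WT and 24.3 to 26.5 in Selenbp1-KO kidneys. Such a sum is set mainly by the brightest genes of its list. All 6 red blood cell genes on the array rose, with a median of 0.94 and a rise of 1.26 for Hbb-b1, 1.17 for Hbb-b2, 1.02 for Hbb-bt, 0.86 for Alas2, 0.56 for Hba-a1 and 0.53 for Hba-a2. Their summed signal was 549 to 722 in WT and 779 to 1173 in Selenbp1-KO kidneys. When 1 array was left out, 4 to 6 of them met the criterion, and 4 did with the methods' t-test. Of 6 fibroblast genes, 4 rose, Lum by 0.85, Dcn by 0.83, Col3a1 by 0.73 and Col1a1 by 0.44, and the median was 0.58. When 1 array was left out, 3 to 5 fibroblast genes met the criterion, and 3 did with the methods' t-test. The fibroblast sum was 19.8 to 25.9 in WT and 32.2 to 41.8 in Selenbp1-KO kidneys. Both sums thus separated the genotypes, as the sum of the macrophage genes did, and their part in the result was not tested. Globin genes of the same chain, Hba or Hbb, are near-identical copies, so probes within a chain are not separate readings.

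Of the other blood cells, T and NK cell genes had a median of 0.36, and 1 of 6 rose, Cd3e by 0.64 (standard error 0.23). None met the criterion without WT replicate 2, WT replicate 3 or Selenbp1-KO replicate 2, or with slide side as a block, and 2 did without WT replicate 4. Cd4, the brightest of these genes, differed by 0.004 (standard error 0.12). The sum of the T and NK cell genes was 1.81 to 2.24 in WT and 2.17 to 2.42 in Selenbp1-KO kidneys, and Cd3g and Cd8a were not well above background on any array. Monocyte genes had a median of 0.23, with 1 of 5 risen, Ly6c2 by 0.26 (standard error 0.10), and sums of 62.1 to 69.2 in WT and 78.9 to 81.4 in Selenbp1-KO kidneys. None of the monocyte genes met the criterion without WT replicate 3 or any Selenbp1-KO replicate, or with scaling by the median, and 2 did without WT replicate 4. Without WT replicate 4, however, 30.4% of all genes tested met it with a higher signal. That share also stands beside the T and NK cell count without this array. No neutrophil gene of 8 met the criterion. Their median was 0.12, or -0.09 with quantile normalization, the brightest, Ly6g, differed by 0.32 (standard error 0.15), and Camp, Ngp, Ltf and Mpo were not well above background on any array. The neutrophil sum was 2.19 to 2.45 in WT and 2.69 to 3.11 in Selenbp1-KO kidneys. The T cell sums overlapped between the genotypes, while the monocyte and neutrophil sums did not, and the part of these cells in the macrophage result was not tested.

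The remaining lists did not separate the genotypes. No dendritic cell gene of 7 met the criterion, with a median of 0.22, or -0.13 with slide side as a block. The brightest, Siglech, differed by -0.07 (standard error 0.19), and Xcr1 and Clec9a, which define conventional type 1 dendritic cells, were not well above background on any array. None of 4 B cell genes met it either. Cd79b, the brightest, differed by -0.16 (standard error 0.24), and Cd79a was not well above background on any array. Endothelial genes had a median of 0.03, and the brightest, Emcn, differed by 0.02 (standard error 0.12). Proximal tubule genes had a median of -0.01, and Kap, the brightest, differed by 0.22 (standard error 0.16). Their sum of 656 to 819 in WT held the 755 to 787 of Selenbp1-KO kidneys within it.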

How the data were processed

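Kidney RNA of 3 WT and 3 Selenbp1-KO mice was hybridized to 6 one-color arrays (Agilent). For each array the authors deposited the Feature Extraction output, with linear intensities that the software had corrected for background and spatial trend but that were not normalized across arrays, and for each spot a p-value against its background. They also deposited a table of quantile normalized intensities. The file headers name Feature Extraction 10.7.1.1 and another array design than the labels, and the submitters' processing notes name version 9.5.1.1.

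Here log2 intensities were centered on each array's 75th percentile over non-control spots, outlier spots were left out, and replicate spots of a probe were averaged. Probes detected at p under 0.05 on 1 or more of the 6 arrays were compared by a two-sided moderated test in limma 3.58.1 under R 4.3.3 (functions lmFit and eBayes), at the methods' unadjusted p under 0.05, with Benjamini-Hochberg adjustment over all 56097 probes. A gene is read from its brightest probe by the mean of all arrays. Names come from RefSeq accessions, which matched 32994 of 56605 probes, and otherwise from the files. Probe coordinates (mm9) were copied from the files, and promoter sequences are from RefSeq on GRCm38.p6. The number of arrays limits the precision. Simulated data in which 200 probes were changed served to test the comparison.

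The 10 genes and the lists were chosen with earlier results of these data known. The genes named are the 10 chosen genes with every probe, Selenbp1, the genes of each list that met the criterion or otherwise its brightest gene, and the 10 other genes most like the mean profile. Lyz1, Ptprc, C2, C4b, Folr2, Stab1, Cbr2, Cd4 and the genes named as not above background were added after their values were seen. The alternatives were other background corrections, scalings, filters and tests (limma with trend and robust options used statmod 1.5.0), the slide side and the replicate number as blocks, each array left out, and averaging a gene's probes.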

Additional observations from a re-analysis of the deposited data

How the results depend on the processing

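The median difference of the 10 genes stayed between 0.36 and 0.59 in 19 alternatives, against 0.43. Counted only as a description, since the genes were chosen on this contrast, 6 of the 10 passed the methods' unadjusted threshold. With slide side as a block, which leaves 1 WT array beside the 3 Selenbp1-KO arrays, 2 did, and Aif1 (-0.027) and Cx3cr1 (-0.28) reversed. Leaving out each array gave 5 to 8. The 8 came without WT replicate 4, where 30.4% of all genes tested were called higher. Without any other array that share was 2.45% to 5.68%, against 6.87% with all arrays. The number of probes called, 4479 with 81.1% higher in Selenbp1-KO kidneys, was 14616 (93.6% higher) with scaling by the median, 2841 under the stricter background filter, which tests fewer probes, 7536 when limma used a trended, robust prior, and 2024 to 17585 when an array was left out, the highest without WT replicate 4 and the lowest without WT replicate 2. Omitting WT replicate 3 gave 2627 probes, and omitting Selenbp1-KO replicate 2 gave 2808. The share higher was 37.3% of 3651 probes with slide side as a block, 53.8% with quantile normalization, 55.1% with the authors' table and 95.4% with normexp background correction (offset 50). Quantile normalization moved the median of all genes from 0.13 to 0.0037 and that of the 10 genes to 0.42. The methods' t-test called 3978 probes, 2 of them after Benjamini-Hochberg adjustment. The cause of these shifts was not tested.

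The genotypes share the replicate numbers 2 and 3, which the labels do not tie to a litter or day. Deviations of same-numbered arrays from their genotype means correlated at 0.171 and 0.187, which for 2 pairs does not establish pairing. With a replicate block on these 4 arrays, 18430 probes were called, none at an adjusted p under 0.05 from limma, and the median of the 10 genes was 0.57. The count past the threshold was again 6, but not of the same genes: Ctss, Cd68 and C1qb no longer passed, and Adgre1, Aif1 and Cx3cr1 did. In this fit 1 complement partner, 4 T and NK cell genes, and no monocyte or further lysosomal gene met the criterion. Of all genes tested, 31.7% met it in this fit with a higher Selenbp1-KO signal, against 6.87% in the fit without blocks. Signal over background limits the 3 probes of the 10 genes that were not well above background on any array.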
